A study of Mus musculus with 12 samples.

Results

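A set of 10 genes of calcium-binding and membrane-organising proteins were examined in mouse regulatory T cells (Treg). They are the S100 genes S100a4, S100a6, S100a10, S100a11 and S100a13, the galectin genes Lgals1 and Lgals3, the intermediate filament gene Vim, and the annexin genes Anxa1 and Anxa2. They were chosen by name as genes linked to the effector state of T cells. Each of the 10 symbols belonged to a single identifier among the 36222 gene identifiers measured. The 12 libraries formed 4 groups of 3. WT mice carried Foxp3-YFP-Cre, in which Cre and the yellow fluorescent protein YFP are made only where Foxp3, the transcription factor that defines Treg, is expressed. Ikzf1 cKO mice carried the same Cre with floxed Ikzf1, which encodes the DNA-binding factor Ikaros, so that deletion follows Foxp3 expression and the cells are otherwise of the same B6 background. The mice were age-matched and 6 to 8 weeks old, each library came from an individual animal, and the sort took YFP+ cells from CD4+ T cells of the spleen. RNA was taken either directly (ex vivo) or after 4 h on plate-bound antibodies to CD3 and CD28, at 1 µg/ml of each (stimulated).

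S100 proteins are small calcium sensors of the EF-hand type that change shape on binding calcium and then attach to partner proteins. Annexins bind acidic phospholipids on the inner face of membranes when calcium rises. The product of Anxa2 forms a stable complex with that of S100a10, and this complex binds the giant scaffold protein encoded by Ahnak. Galectins bind beta-galactosides on glycoproteins inside and outside the cell, and vimentin is the intermediate filament of lymphocytes and mesenchymal cells. Many of these genes are known for higher expression in antigen-experienced and effector T cells, effector Treg included, than in resting cells.

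Between 8208659 and 20247649 reads were assigned to genes in a library. Values below are scaled TPM, the deposited TPM, a level per length of transcript with the same sum in every library, divided by a factor for each library so that the bulk of genes lies at the same level. Fold changes are log2 differences fitted by limma on log2(scaled TPM + 1), and errors after ± are SDs of the 3 libraries of a group. A gene was called when its Benjamini-Hochberg adjusted p over all 13318 genes of at least 5 TPM in some group was under 0.05, and every adjusted p below is from limma and of this kind. Replicates are individual mice. Ikzf1 itself was at 110.1 ± 5.55 scaled TPM in WT and 37.9 ± 4.57 in cKO ex vivo (n = 3), and at 68.9 ± 2.24 and 27.8 ± 3.91 after stimulation, with adjusted p of 5.45e-05 and 0.000161. The Treg markers were present, Foxp3 at 168 ± 18.2 scaled TPM and Cd3e at 582 ± 69.1 in WT ex vivo. The library WT ex vivo 3 came from a female, with Xist at 179 TPM and the Y-linked Ddx3y at 0.0970, and the other 11 from males. The library cKO ex vivo 2 had a median of 1.15 TPM over 1555 olfactory and vomeronasal receptor genes, which lymphocytes do not use, against 0.566 to 0.806 in the other 5 ex vivo libraries. The stimulated libraries had 0.860 to 1.04 in WT and 0.767 to 1.17 in cKO, so this background was mostly higher after stimulation. Its part in the changes of low genes on stimulation was not tested. In RNA of a sorted population, a change in the share of cells that express a gene and a change in RNA per cell cannot be told apart.

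All 5 S100 genes lie on the plus strand of chromosome 3 (build mm9). S100a13 (90318357 to 90328503), S100a4 (90407692 to 90409967) and S100a6 (90416816 to 90418336) sit within 99980 bp. S100a11 (93324410 to 93330209) and S100a10 (93359002 to 93368565) sit within 44156 bp of each other, and the 5 span 3050209 bp in all. The others are dispersed, with Vim on chromosome 2 (13495554 to 13504453), Anxa2 on chromosome 9 (69301427 to 69339602), Lgals3 on chromosome 14 (47987426 to 48005835), Lgals1 on chromosome 15 (78757155 to 78760895) and Anxa1 on the minus strand of chromosome 19 (20447918 to 20465434). All are annotated as protein coding. Of the 461 windows of 51 bases, the read length, in the exons of S100a11, 65.9% occur base for base elsewhere in mm9, with copies on 4 chromosomes, whereas none of the windows of the other 9 genes do. The level of S100a11 is therefore uncertain, since reads from its copies cannot be separated from its own.

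The promoters of the 4 genes whose WT and cKO libraries separated ex vivo are shown because the deleted factor binds DNA. RefSeq (build GRCm38.p6) gave promoters for 8 of the 10 genes. The letters searched on both strands were TGGGAA, the core bound by Ikaros, TGANTCA, the motif of AP-1 factors that T cell stimulation activates, and GGGCGG, the GC box. Windows ran from 250 bases before to 50 bases after the start site. The 250 bases before the start are printed below, 5′ to 3′ in the direction of the gene, with matches in capitals. Matches do not overlap each other there. The coordinates are chr3:90603520-90603769 for S100a4, chr3:90612644-90612893 for S100a6, chr9:69453433-69453682 for Anxa2, all on the plus strand, and chr19:20390672-20390921 for Anxa1 on the minus strand.
S100a4: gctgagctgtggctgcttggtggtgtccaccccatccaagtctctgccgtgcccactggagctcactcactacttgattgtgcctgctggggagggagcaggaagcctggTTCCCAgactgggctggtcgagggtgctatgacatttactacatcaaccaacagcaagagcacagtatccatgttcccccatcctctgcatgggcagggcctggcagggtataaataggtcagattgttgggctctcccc
S100a6: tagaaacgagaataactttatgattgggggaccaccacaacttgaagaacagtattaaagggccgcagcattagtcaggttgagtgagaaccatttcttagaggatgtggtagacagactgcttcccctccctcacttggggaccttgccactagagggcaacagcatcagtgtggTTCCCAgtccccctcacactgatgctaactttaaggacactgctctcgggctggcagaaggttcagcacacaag
Anxa2: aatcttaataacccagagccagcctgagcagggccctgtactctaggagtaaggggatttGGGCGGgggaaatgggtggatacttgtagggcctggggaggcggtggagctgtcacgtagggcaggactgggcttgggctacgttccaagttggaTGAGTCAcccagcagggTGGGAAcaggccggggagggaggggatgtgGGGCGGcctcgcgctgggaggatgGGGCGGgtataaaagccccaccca
Anxa1: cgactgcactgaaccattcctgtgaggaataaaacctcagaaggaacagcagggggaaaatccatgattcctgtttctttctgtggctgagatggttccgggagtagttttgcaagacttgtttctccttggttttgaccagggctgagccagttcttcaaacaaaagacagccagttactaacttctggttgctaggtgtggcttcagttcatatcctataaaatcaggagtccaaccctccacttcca

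The Ikaros core stood in 3 of the 8 promoters, its first base at -140 from the start in S100a4, -74 in S100a6 and -78 in Anxa2. It stood in 25.6% of all 32851 promoters of the table. The AP-1 motif stood in 2 of the 8, Anxa2 with 1 match and S100a11 with 2, against 7.81% of all promoters. The GC box stood in Anxa2, S100a11 and Lgals3, against 35.7% of all promoters. The windows of Anxa1, Vim and S100a13 held none of the 3 motifs. A match of letters is a description of the window and shows no binding.

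In WT ex vivo the genes covered a wide range of expression. Vim was highest at 208 ± 54.4 scaled TPM, followed by S100a10 at 111 ± 22.1, Lgals1 at 104 ± 39.4 and S100a11 at 70.8 ± 12.1 (SD, n = 3). The ranges of S100a10, Lgals1 and S100a11 overlapped from neighbour to neighbour in this order, as did those of Anxa2 (11.8 ± 1.36) and S100a6 (9.60 ± 2.07). S100a13 (34.7 ± 7.33) and S100a4 (16.1 ± 3.41) stood apart from both of their neighbours. Among the 13318 genes, Vim was at the 98.0th percentile of expression and S100a6 at the 48.5th. Lgals3 (2.28 ± 0.0961) and Anxa1 (1.59 ± 0.144) were at the low end. After stimulation the order changed. In WT stimulated cells S100a10, Lgals1, S100a11 and Vim formed an upper group of overlapping neighbours between 60.3 and 86.0 on average, and Anxa2, at 23.7 ± 0.274, had moved above S100a13 and S100a4.

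**Figure D1:**
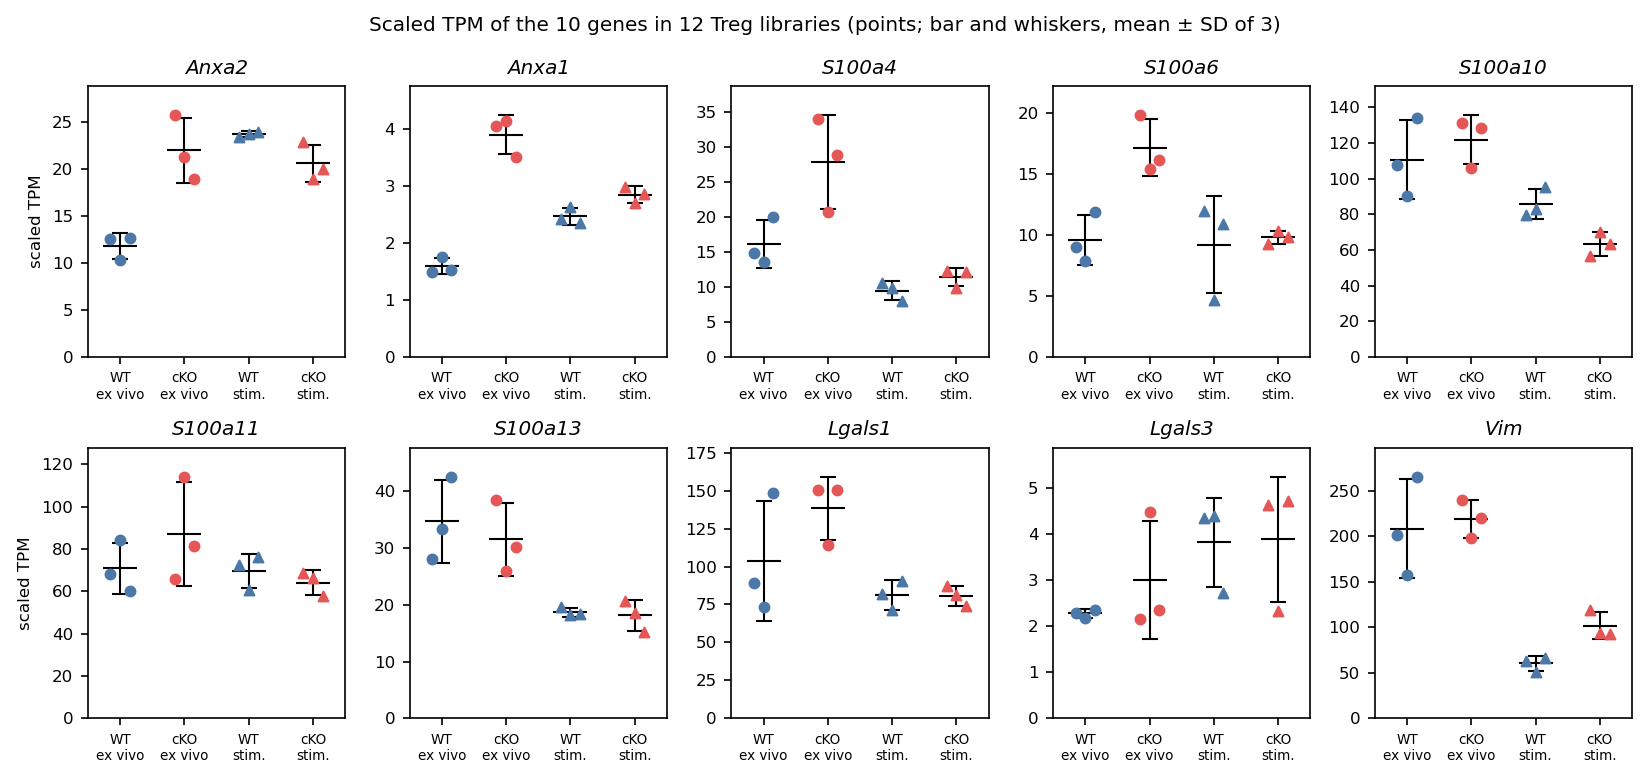
Scaled TPM (y axis, from 0, a separate scale for each gene) of the 10 genes in the 3 libraries of each group (x axis). Points are libraries, circles for ex vivo and triangles for stimulated cells, and the bar and whiskers are mean ± SD. Anxa2 is low in the 3 WT ex vivo libraries, 10.3 to 12.7, and at 18.9 to 25.7 in the other 9.

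Among the 8 genes that reached 5 TPM, 2 were called in the genotype effect ex vivo, Anxa2 and S100a4, both higher in cKO. Of all genes tested 5.29% were called there, with 3.62% called as higher and 1.67% as lower. After stimulation 1 was called between the genotypes, Vim, which was higher in cKO, against 6.93% of all genes, with 3.30% called as higher and 3.63% as lower. Stimulation of WT cells called 4, with Vim, S100a13 and S100a4 lower and Anxa2 higher, against 32.0% of all genes, with 12.7% called as higher and 19.3% as lower. Stimulation of cKO cells called 6, all lower, namely Vim, S100a10, S100a4, S100a13, Lgals1 and S100a6, against 43.8% of all genes, with 17.3% called as higher and 26.5% as lower. The interaction of genotype and stimulation, which tests whether the response to stimulation differed between the genotypes, called Anxa2, against 1.10% of all genes, with 0.451% called as higher and 0.653% as lower. The median log2 change of the 8 was 0.37 for genotype ex vivo, -0.03 for genotype after stimulation, -0.32 for stimulation in WT and -0.76 for stimulation in cKO, where the medians over all genes were -0.01, -0.03, 0.00 and -0.01. The comparisons share groups, so their values are not independent of each other.

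Separation of the libraries can be counted for all 10 genes. Ex vivo every cKO library was above every WT library for 4 of them, Anxa1, Anxa2, S100a4 and S100a6, and below for none, where 11.6% of the 13318 genes separated upwards and 9.96% downwards. After stimulation 2 separated upwards (Vim and Anxa1) and 2 downwards (S100a10 and Anxa2), against 12.8% and 18.0%, and with the TPM as deposited 0 and 1 did. Over the 8 genes that are among the 13318, the counts upwards and downwards were 3 and 0 ex vivo and 1 and 2 after stimulation. On stimulation in WT 3 separated upwards (Anxa1, Anxa2 and Lgals3) and 3 downwards, against 21.1% and 26.3%. On stimulation in cKO none separated upwards and 7 downwards, against 22.8% and 30.7%, the 7 being S100a4, S100a6, S100a10, S100a13, Lgals1, Vim and Anxa1. Over the 8, the counts were 1 and 3 in WT and 0 and 6 in cKO.

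**Figure D2:**
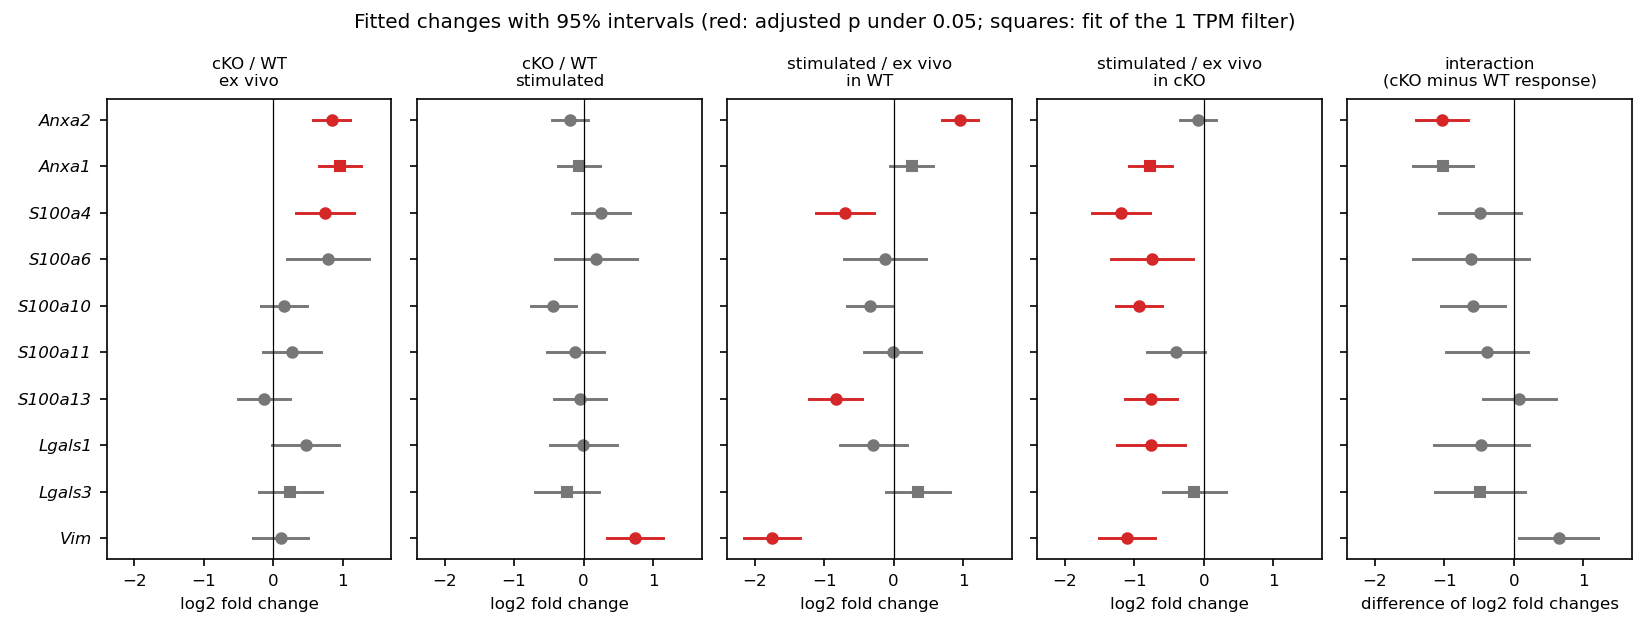
Fitted log2 fold changes (x axis) with 95% intervals for the 10 genes (rows) in the 5 comparisons (panels). Red marks an adjusted p under 0.05, and squares mark Anxa1 and Lgals3, which stayed under 5 TPM and come from the fit of genes of at least 1 TPM. The red points lie right of 0 for genotype ex vivo (0.74 for S100a4, 0.84 for Anxa2, 0.96 for Anxa1) and left of 0 for stimulation in cKO.

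Anxa2 (ENSMUSG00000032231) encodes annexin A2, a calcium-dependent membrane binder of the cell cortex. The WT ex vivo libraries held 12.6, 10.3 and 12.7 scaled TPM, and the cKO ex vivo libraries 25.7, 21.3 and 18.9. The stimulated libraries held 23.4, 23.7 and 23.97 in WT and 22.8, 19.0 and 19.97 in cKO. WT ex vivo thus stood alone below the other 3 groups. The cKO mean ex vivo was 1.86 times the WT mean, a log2 change of 0.84 (SE 0.12, adjusted p 0.00316), with 284 to 591 reads behind the WT values and 771 to 1311 behind the cKO values. In WT, stimulation raised Anxa2 by 0.95 (SE 0.12, adjusted p 0.000153), and in cKO the difference was -0.08 (95% interval -0.35 to 0.18, adjusted p 0.583). The test of this difference between the responses gave -1.04 (SE 0.17, adjusted p 0.0173). After stimulation every cKO library was below every WT library, but the difference of -0.20 was not called (adjusted p 0.332), and with the TPM as deposited the groups overlapped. Refitting without each of the 12 libraries in turn kept the ex vivo and WT stimulation calls of Anxa2 every time, and the interaction 9 times, with 0.0556 without WT stimulated 2, 0.0547 without cKO stimulated 3 and 0.0518 without WT stimulated 3. When genes down to 1 TPM entered the fit and its scaling, none of the 3 was called (adjusted p 0.255, 0.0955 and 0.445), the interaction being -1.34 there.

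Anxa1 (ENSMUSG00000024659) encodes annexin A1, known as a mediator of glucocorticoid action. It was expressed at the bottom of the range, with 34 to 144 reads per library, and had to be tested among the 33873 genes of at least 1 TPM. The WT ex vivo libraries held 1.49, 1.76 and 1.53 scaled TPM, and the cKO ex vivo libraries 4.04, 4.15 and 3.505. After stimulation WT stood at 2.42, 2.63 and 2.35, and cKO at 2.98, 2.69 and 2.86. As for Anxa2, WT ex vivo was the lowest group, and here cKO ex vivo was also apart from both stimulated groups. That fit scales the libraries anew on its own genes, so its changes need not match the levels above. In it Anxa1 was higher in cKO ex vivo by 0.96 (SE 0.14, adjusted p 0.0248), where 0.168% of all genes were called, and fell by 0.77 on stimulation in cKO (SE 0.14, adjusted p 0.00384), where 17.5% were called. The ex vivo call was lost in 9 of the 12 fits without a library, with up to 0.130 without cKO ex vivo 1. It was also lost when the fit held only the ex vivo groups (0.251) and when replicate number was blocked (0.0836). Stimulation in WT changed it by 0.26 (adjusted p 0.356), where 5.11% of all genes were called. The interaction, -1.03, was not called (adjusted p 0.358). The genotype difference after stimulation was -0.07 (adjusted p 0.865), although all 3 cKO libraries were above the WT libraries in scaled TPM. In cKO ex vivo Anxa1 was at 3.89 to 4.87 TPM as deposited, above the medians of 25 low marker genes of other cell types in those libraries, 1.28 to 2.52 TPM, and below the highest of them at 5.54. In WT ex vivo it was at 1.42 to 1.64, in the range of their medians of 1.32 to 1.65. These 25 leave out Cst3, Cd79b and Cd8b1 of the marker lists, so they are a set of low genes by choice.

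S100a10 (ENSMUSG00000041959), the partner of annexin A2, is the S100 protein that has lost calcium binding and stays in its active shape. It was abundant and did not follow Anxa2. The libraries held 107, 90.0 and 134 scaled TPM in WT ex vivo and 131, 106 and 128 in cKO ex vivo, overlapping, with a difference of 0.15 (95% interval -0.17 to 0.48, adjusted p 0.676). They held 79.7, 82.7 and 95.5 in WT stimulated and 56.7, 70.2 and 63.5 in cKO stimulated. All 3 stimulated cKO libraries lay below every other library of the series. Stimulation in cKO changed S100a10 by -0.93 (SE 0.15, adjusted p 0.000643), to 52.1% of the ex vivo mean, and this call held in all 12 fits without a library and all 8 other settings. Stimulation in WT gave -0.34 (SE 0.15, adjusted p 0.102) and the genotype difference after stimulation -0.43 (SE 0.15, adjusted p 0.110), neither called. The interaction of -0.59 was not called either (SE 0.21, adjusted p 0.227).

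Because the 2 proteins form a complex, the ratio of Anxa2 to S100a10 within each library, which no scaling of the library can change, was computed after their values were seen. Ex vivo it was 0.117, 0.114 and 0.0944 in WT and 0.196, 0.200 and 0.148 in cKO. With stimulation it was 0.294, 0.287 and 0.251 in WT and 0.402, 0.270 and 0.314 in cKO. The ratio was higher in every cKO than in every WT library ex vivo, and higher in every stimulated than in every ex vivo library of the same genotype. An exact permutation test (two-sided) gave 0.1 for each of these 3 separations, which is the floor for 3 against 3. After stimulation the genotypes overlapped (exact permutation p 0.3). Ahnak, the scaffold that the complex binds, held 103, 91.9 and 83.7 scaled TPM in WT ex vivo and 204, 165 and 227 in cKO ex vivo. It rose in cKO ex vivo by 1.08 (SE 0.12, adjusted p 0.000846) and, unlike Anxa2, fell on stimulation in both genotypes, by 1.09 in WT and 2.26 in cKO, to 43.1 ± 3.58 and 40.3 ± 2.34 scaled TPM. Its interaction of -1.17 was called (SE 0.18, adjusted p 0.0132).

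**Figure D3:**
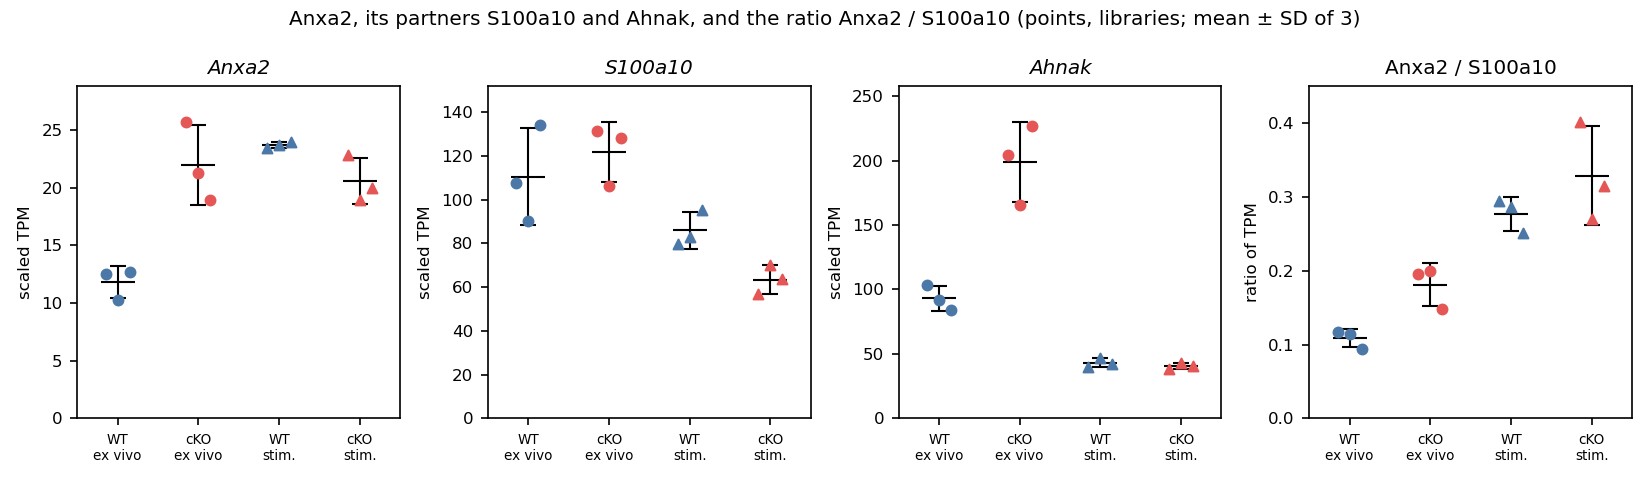
Scaled TPM (y axes, from 0) of Anxa2, S100a10 and Ahnak, and the ratio of Anxa2 to S100a10 TPM, in the 3 libraries of each group (x axes). Points are libraries and bars mean ± SD. Anxa2 and Ahnak separate the genotypes ex vivo, S100a10 does not (111 against 122 on average), and the ratio rises from 0.108 in WT ex vivo to 0.329 in cKO stimulated.

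S100a4 (ENSMUSG00000001020), also called metastasin, binds non-muscle myosin and is known for its part in cell motility. The WT ex vivo libraries held 14.9, 13.5 and 20.01 scaled TPM, the cKO ex vivo libraries 33.9, 20.7 and 28.9. The stimulated libraries held 10.5, 9.88 and 7.94 in WT and 12.3, 9.89 and 12.04 in cKO. The genotypes did not overlap ex vivo, though the lowest cKO library (20.7) was close to the highest WT library (20.01), and both ex vivo groups were above both stimulated groups. With the TPM as deposited, the WT ex vivo and WT stimulated libraries overlapped. The difference ex vivo was 0.74 (SE 0.19, adjusted p 0.0465), 1.72 times on the means. This call held in 2 of 12 fits without a library, those without WT ex vivo 3 or cKO ex vivo 2, and reached 0.169 without cKO ex vivo 1. It held in 4 of 8 other settings, with an adjusted p of up to 0.586. S100a4 fell on stimulation by 0.70 in WT (adjusted p 0.0152, up to 0.0666 without WT ex vivo 3) and by 1.19 in cKO (adjusted p 0.000588, held in all 12), to 58.5% and 41.0% of the ex vivo means. The WT call held in 5 of 8 other settings, with up to 0.128, and the cKO call in all 8. The responses of WT and cKO were not shown to differ, with an interaction of -0.49 (95% interval -1.08 to 0.10, adjusted p 0.420).

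S100a6 (ENSMUSG00000001025), calcyclin, lies just downstream of S100a4 on the chromosome, and its values had a similar form ex vivo. The libraries held 9.04, 7.87 and 11.9 scaled TPM in WT ex vivo and 19.9, 15.5 and 16.2 in cKO ex vivo. The groups did not overlap. The difference of 0.79 was as large as that of S100a4 but was not called (SE 0.27, adjusted p 0.137). The library WT stimulated 2 held 4.63 scaled TPM, from 31 reads, against 11.99 and 10.9 in WT stimulated 1 and 3. Without that library, which enters the shared error, the adjusted p ex vivo was 0.0151 at a change of 0.79. This was the only 1 of 12 fits without a library to call it, with up to 0.333 without cKO ex vivo 1. Of 8 other settings, 1 called it. The stimulated cKO libraries held 9.27, 10.3 and 9.83, all below the cKO ex vivo libraries, and the fall of 0.74 was called (adjusted p 0.0436), though in only 4 of 12 fits without a library, with up to 0.138 without cKO ex vivo 1.

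S100a13 (ENSMUSG00000042312) is known for its role in the release of growth factors and cytokines that lack a signal peptide. Its libraries held 28.1, 33.3 and 42.6 scaled TPM in WT ex vivo and 38.4, 25.9 and 30.2 in cKO ex vivo, fully overlapping (-0.13, 95% interval -0.51 to 0.24). They held 19.6, 18.2 and 18.3 in WT stimulated and 20.6, 18.5 and 15.2 in cKO stimulated. Every stimulated library was below every ex vivo library. The falls were 0.84 in WT (SE 0.17, adjusted p 0.00351) and 0.76 in cKO (SE 0.17, adjusted p 0.00503), and both calls held in all 12 fits without a library. The WT call held in 7 of 8 other settings, with up to 0.0789, and the cKO call in all 8. The interaction was 0.08 (95% interval -0.45 to 0.61). S100a13 thus had called responses to stimulation in both genotypes and no called difference by genotype.

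S100a11 (ENSMUSG00000027907), calgizzarin, was called in no comparison. Its libraries held 68.0, 84.1 and 60.3 scaled TPM in WT ex vivo and 65.9, 114 and 81.2 in cKO ex vivo. After stimulation they held 57.6 to 76.2 in both genotypes. The highest value was that of cKO ex vivo 2, the ex vivo library with the highest level of receptor genes, and the part of that background and of the copies of S100a11 in its values was not tested. The difference closest to a call was stimulation in cKO, -0.40 (95% interval -0.82 to 0.01, adjusted p 0.103), which was called in 1 of 12 fits without a library (-0.58, adjusted p 0.0345 without cKO ex vivo 1) and with the 1 TPM filter (-0.96, adjusted p 0.00962).

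Lgals1 (ENSMUSG00000068220) encodes galectin-1, a secreted lectin known to contribute to suppression by Treg. The WT ex vivo libraries held 89.5, 73.6 and 148 scaled TPM, and the cKO ex vivo libraries 151, 114 and 150.3. The highest WT library, WT ex vivo 3, is the one from a female and reached the cKO level. The difference ex vivo was 0.46 (95% interval -0.02 to 0.95, adjusted p 0.303) with that library and 0.75 (adjusted p 0.0358) without it. That was the only call of Lgals1 ex vivo among the 12 fits that dropped a library. Dropping WT ex vivo 2 instead gave an adjusted p of 0.612. Each of the 8 other settings left Lgals1 uncalled ex vivo. The part of the sex of the animal was not tested. The stimulated libraries held 81.9, 71.4 and 90.6 in WT and 87.1, 81.5 and 74.0 in cKO, with overlap and a 95% interval of the difference from -0.49 to 0.48. On stimulation in cKO Lgals1 fell by 0.76 (SE 0.22, adjusted p 0.0175), with 9 of 12 fits keeping the call and up to 0.0755 without cKO stimulated 3. In WT the change was -0.29 (adjusted p 0.339).

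Lgals3 (ENSMUSG00000050335), the chimeric galectin of macrophages and activated cells, was barely detected. It had 30 to 81 reads per library. In the 12 libraries it ranged from 2.17 to 4.73 scaled TPM, with group means of 2.28 ± 0.0961 and 3.00 ± 1.29 ex vivo and 3.82 ± 0.959 and 3.90 ± 1.36 after stimulation, WT before cKO. These levels overlap those of the 25 markers of other cell types, the highest of which reached 8.22 TPM. The 3 WT stimulated libraries were above the 3 WT ex vivo libraries, but no comparison was called in the fit of genes of at least 1 TPM (smallest adjusted p 0.413). The medians of those 25 markers were also higher there, 1.97 to 2.30 TPM in WT stimulated against 1.32 to 1.65 in WT ex vivo.

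Vim (ENSMUSG00000026728) encodes vimentin, which collapses and is rearranged when lymphocytes polarise. Its fall on stimulation in WT was the largest fitted change among the 10 genes in the 5 comparisons. The libraries held 201, 157 and 266 scaled TPM in WT ex vivo and 239, 198 and 221 in cKO ex vivo, overlapping (0.10, 95% interval -0.30 to 0.51). After stimulation they held 63.1, 51.2 and 66.5 in WT and 119, 94.2 and 92.2 in cKO. All stimulated libraries were below all ex vivo libraries, and all 3 cKO stimulated libraries were above all 3 WT stimulated libraries. Vim fell by 1.75 in WT (SE 0.18, adjusted p 5.12e-05), to 29.0% of the ex vivo mean, and by 1.10 in cKO (SE 0.18, adjusted p 0.000813), to 46.5%, and both calls held in all 12 fits without a library and all 8 other settings. The difference between the genotypes after stimulation was 0.75 (SE 0.18, adjusted p 0.0343). This call held in 5 of 12 fits, reached 0.146 without WT stimulated 2, and was lost with the TPM as deposited (0.46, adjusted p 0.287), where cKO and WT libraries overlapped. The interaction of 0.64 was not called (95% interval 0.08 to 1.21, adjusted p 0.283).

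The calls differed in how far they rested on single libraries and settings. There were 16 calls, 2 of them of Anxa1. Those of Vim and S100a13 for stimulation in both genotypes, S100a4 and S100a10 in cKO, Anxa2 ex vivo and in WT, and Anxa1 in cKO held in each of the 12 fits without a library. The other 7 did not.

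**Figure D4:**
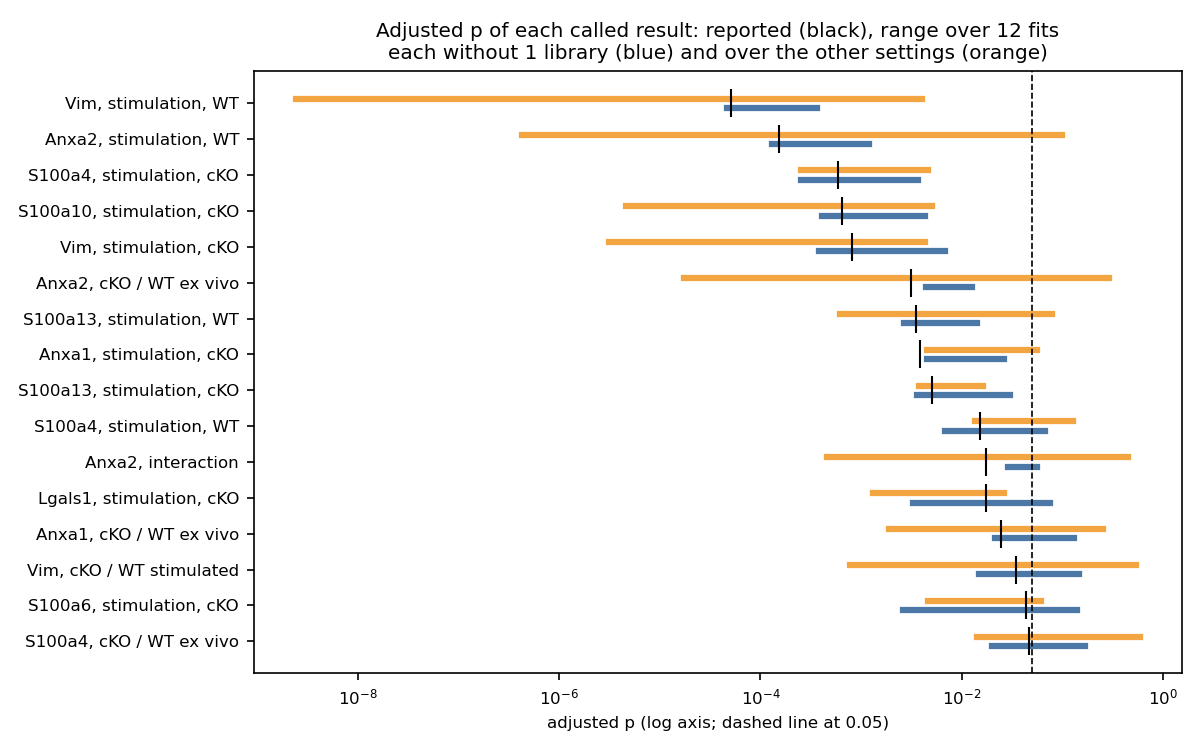
Adjusted p (x axis, log scale) of each called result (rows). The black mark is the reported value, the blue bar the range over the 12 leave-one-out fits, and the orange bar the range over the other settings of filter, scaling, pseudocount, block and model. The dashed line is 0.05. The falls of Vim, S100a10, S100a4 and S100a13 in cKO and of Vim in WT keep both bars left of the line, and S100a4 ex vivo, at 0.0465, lies beside it.

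The other genes of the 3 families were read from lists drawn up with results of these libraries known. The 4 most abundant of each list were to be named, and S100a8, S100a9 and other genes named beyond those 4 were picked after their values were seen. Of 12 other S100 or S100-related genes, 4 reached 5 TPM and none was called between the genotypes. S100a8 and S100a9, the abundant S100 genes of neutrophils and monocytes, were at 0.766 ± 0.449 and 1.48 ± 1.25 scaled TPM in WT ex vivo and at most at 2.38 ± 0.868 on average, S100a8 in cKO stimulated. S100a1 and S100a3 were at 4.67 ± 3.62 and 4.15 ± 0.929 in WT ex vivo and were not called in any comparison. S100pbp, the gene of an S100-binding protein, rose on stimulation in WT by 0.79 and in cKO by 0.66 (adjusted p 0.000144 and 0.000391), in the direction opposite to the called S100 genes above. S100a14 reached 5 TPM only after stimulation, so the filter favoured a rise, and it was at 3.42 ± 1.96 in cKO ex vivo and 8.63 ± 3.01 in cKO stimulated.

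Of 10 other annexin genes, 5 reached 5 TPM, and none was called by genotype. Anxa6, the most abundant annexin gene in these cells, was at 128 ± 17.6 scaled TPM in WT ex vivo and 120 ± 16.2 in cKO ex vivo, and fell on stimulation by 1.52 and 1.69 (adjusted p 1.72e-05 and 6.16e-06). Anxa7 rose by 0.84 and 0.53 (adjusted p 0.00089 and 0.0104). Anxa5, the annexin used to stain dying cells, was at 30.01 ± 1.703 in WT and 40.1 ± 2.71 in cKO ex vivo, a difference of 0.40 that was not called (adjusted p 0.0801), and fell by 0.37 on stimulation in cKO (adjusted p 0.0258). Anxa4 reached 5 TPM only in cKO stimulated, where it is highest, so the filter favoured its called rise in cKO (0.49, adjusted p 0.0191). Its rise in WT was 0.53 (adjusted p 0.0181), between groups that both stayed under 5 TPM. Anxa11 was called in no comparison. On stimulation Anxa6 and Anxa7 thus moved in opposite directions.

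Of 8 other galectin genes listed, 7 were measured and 6 reached 5 TPM. Lgals7 was the one galectin gene called by genotype in both conditions, at 4.82 ± 0.735 scaled TPM in WT and 14.8 ± 1.37 in cKO ex vivo (1.44, SE 0.12, adjusted p 0.000124) and at 6.54 ± 0.992 and 15.6 ± 1.00 after stimulation (1.15, adjusted p 0.000391). Lgals9, which encodes the tandem-repeat galectin-9, was at 67.5 ± 7.93 in WT ex vivo and fell by 1.22 in WT and 0.95 in cKO on stimulation (adjusted p 0.000193 and 0.000773), with no call by genotype. Lgals3bp, the gene of a galectin-3-binding glycoprotein, fell on stimulation by 1.29 in WT and 0.44 in cKO (adjusted p 9.17e-05 and 0.0329). It was higher in cKO after stimulation by 0.93 (adjusted p 0.00416), its difference ex vivo was 0.08 (adjusted p 0.865), and the interaction of 0.85 was not called (adjusted p 0.0858). Lgals8 was called in no comparison.

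Of 16 partner and effector-state genes, 15 reached 5 TPM. Ex vivo 5 were called as higher in cKO, namely Ahnak, Itgb1, Klrg1, Cd44 and Cd9, and 1 as lower, Crip1, where 3.62% of all genes were called as higher and 1.67% as lower. Itgb1, the beta chain of many matrix-binding integrins, rose from 93.9 ± 8.07 to 154 ± 13.7 scaled TPM (0.70, adjusted p 0.00173), and its interaction of -0.85 was called (adjusted p 0.0136). Crip1, the gene of a small LIM-domain protein, moved the other way, from 281 ± 47.7 to 175 ± 7.62 (-0.67, adjusted p 0.0185). Flna, filamin A, was at 144 ± 14.2 and 152 ± 20.6. On stimulation 10 of the 15 were called as lower in WT and 12 in cKO, with 1 as higher in each, against 19.3% and 26.5% of all genes called as lower and 12.7% and 17.3% as higher. Of 10 genes of the resting state, 3 were called as lower in cKO ex vivo, Klf2 and Lef1 among them, against the same 1.67% of all genes, and none as higher. Klf2, which keeps T cells recirculating, fell from 1495 ± 281 to 547 ± 57.8 scaled TPM (-1.44, adjusted p 0.000483), while Tcf7 was at 425 ± 30.1 and 425 ± 37.6, Ccr7 at 837 ± 128 and 571 ± 157, and S1pr1 at 349.7 ± 61.9 and 231 ± 48.5. The resting-state list also fell on stimulation, with 7 of the 10 called as lower in WT and 9 in cKO, and none as higher. The shares of all genes are the same 19.3% and 26.5%.

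Most marker genes of other cell types were low. The 10 myeloid markers, S100a8 and S100a9 among them, summed to 37.7 to 51.1 scaled TPM per library in WT ex vivo and 40.2 to 49.5 in cKO ex vivo, and to 48.2 to 49.1 and 49.6 to 61.0 after stimulation. Cst3, the gene of the widely expressed protease inhibitor cystatin C, carried most of this sum, at 28.2 ± 1.88 in WT ex vivo and 27.2 ± 1.44 in cKO ex vivo, and the other 9 were under 5 TPM in both. The 6 B cell markers summed to 11.5 to 17.7 in WT ex vivo and 19.4 to 25.3 in cKO ex vivo, and to 14.2 to 16.9 and 21.5 to 31.6 after stimulation, so this sum was higher in cKO in both conditions. Cd79b was the highest of the 6, at 6.31 ± 1.65 and 10.7 ± 0.379 ex vivo (0.70, adjusted p 0.112) and at 3.67 ± 1.62 and 7.81 ± 1.14 after stimulation, where it was called as higher in cKO (0.96, adjusted p 0.0283), while the defining B cell gene Ms4a1 was at 1.16 ± 0.309 in WT and 1.22 ± 0.303 in cKO ex vivo, and at 1.19 ± 0.0414 and 2.99 ± 1.117 after stimulation. No marker of these lists was at 0 in every library of a group. Markers of CD8 and NK cells (4 genes) summed to 11.2 to 21.9 over all libraries, erythroid markers (5 genes) to 2.30 to 8.66 and stroma markers (3 genes) to 2.76 to 15.9. The part of other cells in the genotype differences of Anxa2, S100a4 and Anxa1 ex vivo and of Vim after stimulation was not tested.

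The genes did not share a single pattern over the 12 libraries. Pearson r of log2(scaled TPM + 1) between members of the 8 tested genes had a median of 0.49 over 28 pairs, from -0.51 (S100a13 and Anxa2) to 0.86 (S100a13 and Vim). Deviations from the group means, which hold only the spread between replicates, gave a median of 0.44, from -0.84 (S100a4 and S100a11) to 0.92 (Lgals1 and Vim). Libraries share their depth and scaling in all such values. Against the mean profile of the 8 standardised genes, Lgals1 had r 0.93, S100a4 0.92, S100a11 0.44 and Anxa2 -0.02. That profile contains the gene itself, which favours a higher r for the 8. Of 3571 genes with a mean of at least 20 TPM, those most like the profile were Ncapd2 (r 0.97), Cd81 (0.96), Cd82 (0.96), Itgb1 (0.95), Rfk (0.95), Ctsb (0.95), Fam110a (0.95) and Leprot (0.94). With the TPM as deposited 5 of these 8 remained among the first 8, and with deviations from group means none did. Cd82, a tetraspanin of the cell surface, was at 101.2 ± 6.84 scaled TPM in WT and 159 ± 18.5 in cKO ex vivo, and at 68.7 ± 4.31 and 64.4 ± 8.21 after stimulation, highest in cKO ex vivo and lower after stimulation.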

How the data were processed

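RNA of sorted splenic Treg was sequenced after rRNA depletion as directional libraries with 51 bp paired ends. According to the submitters' processing notes and the study's methods, reads were aligned to mm9 with STAR 2.6.0c and counted per gene with HTSeq 0.6.1. The authors deposited TPM, a signal per gene that is normalised for length and sums to the same total in each library. They also deposited a log2 value, that of the TPM plus an offset that behaves as the TPM of a single read. A further deposited table holds the authors' own pairwise edgeR results (log2 fold changes, F statistics, p-values and false discovery rates) and was not used. From the TPM and the offset in its log2, whole reads were recovered for 99.9977% of values within 0.01, which gave the depth of each library. TPM was divided by library factors from a trimmed mean of M-values (30% of M and 5% of A trimmed, own code in R 4.3.3). Gm10800 alone held 17.7% to 55.9% of the deposited TPM of a library, so TPM of other genes moves with it unless rescaled. It held 17.7% to 39.8% in WT ex vivo and 20.4% to 24.4% in cKO ex vivo. After stimulation it held 32.6% to 44.4% in WT and 42.9% to 55.9% in cKO. Genes with a group mean of at least 5 TPM were fitted on log2(scaled TPM + 1) with limma 3.58.1 (trended prior, 4 groups, 5 contrasts, Benjamini-Hochberg adjustment). The pseudocount of 1 makes fold changes of low genes too small. Anxa1 and Lgals3 came from the same fit with a minimum of 1 TPM.

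The 10 genes and all lists were chosen with earlier results of these data known. Named were the 10 genes, the 4 genes of highest mean TPM in each list, Ahnak, and the 8 genes most like the mean profile, and other genes named were picked after their values were seen. The script was tested on simulated data. Alternatives were other filters, TPM as deposited, median of ratios scaling, a pseudocount of 0.1, a fit of the compared groups only, voom on recovered reads, a replicate block and leaving out each library. Values of some single genes of the lists are not reported here.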

Additional observations from a re-analysis of the deposited data

Results flagged for a closer look

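The response of Anxa2 to stimulation differed between the genotypes by a test of the difference itself. Anxa2 rose by 0.95 in WT and changed by -0.08 in cKO, an interaction of -1.04 on the log2 scale (SE 0.17, limma adjusted p 0.0173). The call held in 9 of 12 fits without a library and in 5 of 7 other settings, with an adjusted p of up to 0.445 with genes down to 1 TPM, where 0 genes were called for the interaction and 2468 had an unadjusted p under 0.05. WT ex vivo stood at 11.8 ± 1.36 scaled TPM, cKO ex vivo at 21.98 ± 3.46, WT stimulated at 23.7 ± 0.274 and cKO stimulated at 20.6 ± 2.00 (SD, n = 3). The cause was not tested.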

How the results depend on the processing

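Of the fitted changes of the 10 genes recomputed under the alternatives, 870 kept their direction and their side of the threshold. Of the others, 64 lost a call, 9 gained one, and 37, none of them called, changed sign. Counts of called genes are not part of this tally. Counts of called genes depended on the filter, together with the library factors computed anew from the genes it kept, in 4 of the 5 comparisons. With TPM as deposited in both, so that no factor changed, lowering the filter from 5 to 1 TPM took the calls from 273 to 141 ex vivo and from 306 to 121 between the genotypes after stimulation. With genes down to 1 TPM or with no filter, the genes called fell from 704 to 57 and 44 ex vivo, from 923 to 52 and 52 between the genotypes after stimulation, from 4262 to 1731 and 1677 for stimulation in WT, and from 147 to 0 and 0 for the interaction (2468 and 2506 at an unadjusted p under 0.05), while for stimulation in cKO they were 5934 and 5686 against 5835. Of the 10 genes, all tested then, 1 and 1 were called ex vivo, which was Anxa1 both times and neither Anxa2 nor S100a4, 0 and 0 between the genotypes after stimulation, 2 and 2 for stimulation in WT (Vim and S100a13), 8 and 8 for stimulation in cKO, with S100a11 and Anxa1 added to the 6, and 0 and 0 for the interaction. With the TPM as deposited, 273, 306, 1943 and 67 genes were called in these comparisons, and 0 of the 8 between the genotypes after stimulation and 2 on stimulation in WT. Under that scaling the median change of all genes was 0.21 ex vivo, -0.30 between the genotypes after stimulation, 0.18 and -0.31 for stimulation in WT and cKO, and -0.52 for the interaction, against -0.01, -0.03, 0.00, -0.01 and -0.04, and the calls were split into 260 higher and 13 lower ex vivo, where the reported split was 482 and 222, 69 and 237 (439 and 484), 1175 and 768 (1688 and 2574) and 558 and 4116 (2305 and 3530). For the interaction the split with the TPM as deposited was 6 higher and 61 lower (60 and 87). With a fit of the compared groups only, 310 genes were called ex vivo and 546 after stimulation between the genotypes, and 1 of the 8 ex vivo, as with a pseudocount of 0.1. With voom, 1203 genes were called ex vivo and 395 for the interaction, and 2 of the 8 between the genotypes after stimulation. Nothing in the labels pairs the replicate numbers. Deviations of same-numbered libraries correlated at 0.149, 0.257 and 0.0781 ex vivo, where each of the 3 correlated best with its own number, a hint from the data and not the design, and at lower values in the other comparisons. The replicate block gave 516, 630, 3944 and 5458 calls and 65 for the interaction, with the same 2, 1, 4, 6 and 1 counts of the 8, while Anxa1 lost its ex vivo call (0.0836).

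Leaving out 1 library gave 1 to 3 of the 8 genes called ex vivo, 0 to 1 between the genotypes after stimulation, 3 to 5 and 4 to 6 for stimulation in WT and cKO, and 0 to 1 for the interaction. Genes called ranged from 324 (without cKO ex vivo 3) to 740, from 398 (without WT stimulated 2) to 1057, from 3256 to 4387, from 4098 to 5992 and from 50 (without cKO ex vivo 3) to 203.

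The results that changed sign were called on neither side. For the genotype after stimulation, S100a4 was at -0.027, -0.033 and -0.013 and S100a6 at -0.10, -0.10 and -0.092 with 1 TPM, no filter and deposited TPM, and S100a6 ranged from -0.21 to 0.40 without a library. For stimulation in WT, S100a6 was at 0.053 with deposited TPM and ranged from -0.35 to 0.24 without a library, S100a11 was at 0.18 with deposited TPM, 0.014 with median of ratios and 0.012 with voom and ranged from -0.11 to 0.12, and Lgals1 ranged from -0.50 to 0.0061. S100a13 was at 0.10 ex vivo with deposited TPM, ranged from -0.28 to 0.019 there and from -0.14 to 0.088 by genotype after stimulation, and its interaction was at -0.21, -0.20 and -0.43 with 1 TPM, no filter and deposited TPM and ranged from -0.047 to 0.23. Lgals1 by genotype after stimulation was at 0.018 with median of ratios and 0.0025 with voom and ranged from -0.093 to 0.088. Vim ex vivo ranged from -0.081 to 0.29, Anxa2 on stimulation in cKO from -0.18 to 0.030, Lgals3 on stimulation in cKO from -0.26 to 0.031, with 0.040 on deposited TPM, and Anxa1 by genotype after stimulation from -0.13 to 0.022. The cause of these changes was not tested. Depth limits Anxa1, Lgals3, S100a4 and S100a6, with as few as 34, 30, 37 and 31 reads in a library.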
